A study of Mus musculus with 12 samples.

Results

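The 8 genes described here encode mouse DNA topoisomerases and the enzymes that free DNA ends from them: Top2a and Top2b (type II), Top1 and the mitochondrial Top1mt (type IB), Top3a and Top3b (type IA), and the tyrosyl-DNA phosphodiesterases Tdp1 and Tdp2. They were chosen by symbol as the targets of etoposide, their relatives and the enzymes that act on trapped topoisomerases, and are 8 of the 24421 genes in the count table. All 8 passed the filter on low counts and were among the 15220 genes tested.

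RNA-Seq was performed on 12 libraries of mouse embryonic fibroblasts (MEFs), to ask what the transcription factors TFEB and TFE3 contribute to the response to DNA damage. The 4 groups of 3 libraries were Null MEFs without etoposide, TFEB/TFE3 DKO MEFs without etoposide, and each genotype after 8 hr in 100 µM etoposide. Null, the label of the other line, was taken here as the MEFs that the paper calls WT, which the labels do not state. The controls are untreated in the labels and received DMSO in the paper. In the DKO MEFs, Tfeb and Tfe3 had been targeted with CRISPR-Cas9. Each genotype was represented by 1 line, so genotype and line cannot be told apart. The MEFs had been immortalized with SV40, whose large T antigen binds p53. Nothing in the labels says that replicates were separate cultures, so p-values measure only the spread between these libraries, which may be technical.

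Topoisomerases relieve the twisting and tangling that arise when DNA is transcribed, copied and segregated. They cut DNA through a tyrosine that stays joined to the broken end until the break is resealed. Etoposide holds type II enzymes at this stage, which leaves breaks blocked by protein, and Tdp2 and Tdp1 hydrolyse the bond that joins the tyrosine to DNA, Tdp2 mainly for type II enzymes and Tdp1 mainly for Top1.

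Counts on genes per library ranged from 45577023 in DKO etoposide replicate 1 to 104120871 in DKO control replicate 2, with a median of 71634158. Levels are given as CPM, with library sizes scaled by TMM, and changes as log2 fold changes with their standard error (SE). The lowest count of any of the 8 genes in any library was 326, for Top1mt in DKO control replicate 1, where counting error alone amounts to 5.54% of the value. For Top2a the lowest was 25787 counts and the counting error 0.623%. A change was called where the adjusted p of edgeR's quasi-likelihood test, corrected by the Benjamini-Hochberg (BH) method over all 15220 genes, was under 0.05.

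Scaling bears on the size of the changes. With library size alone in place of TMM, the median change of all genes, on the log2 scale, moved by 0.17 for etoposide in Null MEFs, by 0.27 for etoposide in DKO MEFs, by −0.12 for DKO against Null without etoposide and by 0.10 for the interaction. For etoposide in Null MEFs, 6435 genes were higher and 5656 lower with TMM, against 7803 and 4396 with library size alone. In DKO MEFs the split was 6645 to 4790 with TMM and 9316 to 3006 with library size alone. DKO against Null controls gave 5066 higher and 5091 lower genes with TMM, against 3977 and 6393. The interaction gave 4507 genes above and 3719 below 0 with TMM, against 5735 and 3055. With the size factors of DESeq2 in edgeR the balance of the interaction turned, to 3797 genes above and 4192 below 0.

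The edited genes were examined first as a check of the labels. Tfeb was at 38.9, 39.2 and 42.1 CPM in Null controls and at 4.60, 6.09 and 4.68 CPM in DKO controls. After etoposide it was at 11.4, 10.2 and 10.4 CPM in Null MEFs and at 1.92, 1.61 and 2.20 CPM in DKO MEFs, so the genotypes did not overlap under either treatment. Tfe3 was at 115, 109.9 and 114 CPM in Null controls and at 94.1, 93.1 and 91.0 CPM in DKO controls, a smaller difference (log2 fold change −0.29, SE 0.0416). After etoposide the genotypes overlapped for Tfe3, so its RNA was still made in the DKO line and its level checks the labels only without etoposide. Of 6 known p53 targets kept as a check that etoposide acted, 6 rose in Null and 6 in DKO MEFs, where 42.3% and 43.7% of all genes rose, with median log2 fold changes of 3.43 and 2.35 against 0.07 and 0.14 over all genes. They were Cdkn1a, Mdm2, Ccng1, Btg2, Sesn1 and Trp53inp1, from Sesn1 at 0.84 (SE 0.0481) to Trp53inp1 at 5.87 (SE 0.0845) in Null MEFs. All 6 rose less in DKO MEFs by the interaction test, which was called for 54.0% of all genes tested, with 24.4% of all genes below 0.

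Fibroblast markers were abundant, 9 of 10 averaging 1 CPM or more. Vim, which encodes the intermediate filament vimentin, had the highest mean over all libraries, at 1880 CPM. In treated DKO MEFs its mean of 801 CPM lay below that of Fn1 at 1531 CPM. These levels are not divided by length, and the union of exons is 4743 bases for Vim and 11685 bases for Fn1. The summed level of the fibroblast markers was 6797, 6795 and 6901 CPM in Null controls and 11120, 11720 and 11170 CPM in DKO controls. After etoposide it was 3861, 3744 and 3737 CPM in Null MEFs and 5075, 5146 and 4817 CPM in DKO MEFs. With etoposide 8 of the 10 fell and 1 rose in Null MEFs, and 9 fell in DKO MEFs, while between the controls 9 were higher and 1 lower in DKO MEFs, against 33.3% and 33.4% of all genes. Thy1 was at 4.03 to 4.50 CPM in Null controls and at most 0.0602 CPM in DKO controls, and Lum was below 1 CPM in every library. The 7 macrophage markers summed to 2.13, 2.03 and 2.21 CPM in Null controls, 2.752, 1.956 and 1.711 CPM in DKO controls, 14.03, 14.05 and 14.96 CPM in treated Null and 4.25, 3.88 and 4.95 CPM in treated DKO MEFs. Of the 5 tested, 5 rose with etoposide in Null MEFs, and 4 rose and 1 was not called in DKO MEFs. Among these, Ptprc and Itgam were at no more than 0.0503 CPM in any control library. Both passed the filter on low counts only with the treated libraries, so that filter partly fixed the count of rises. Cd68, a lysosomal protein gene, made up most of the macrophage sum. Ptprc, the gene of the leukocyte protein CD45, was at 0 to 0.0301 CPM in the control libraries and at 0.205 to 0.540 CPM in the treated ones, and Adgre1 had no count in any control library and reached at most 0.0875 CPM.

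The 6 epithelial markers summed to 15.35, 14.15 and 14.13 CPM in Null controls, 31.99, 33.71 and 30.63 CPM in DKO controls, 23.08, 23.81 and 26.04 CPM in treated Null and 15.32, 16.18 and 15.88 CPM in treated DKO MEFs. With etoposide 5 of the 6 rose and 1 was not called in Null MEFs, and 4 rose, 1 fell and 1 was not called in DKO MEFs. In control libraries Krt5 and Krt14 were at no more than 0.0168 CPM and Cldn4 at no more than 0.1504 CPM. They passed the filter on low counts with the treated libraries, so that filter partly fixed the count of rises. Krt19 was the only epithelial marker averaging 1 CPM or more. It rose by 0.64 in Null MEFs (SE 0.0618) and fell by 1.17 on the log2 scale in DKO MEFs (SE 0.0604). The 6 endothelial markers summed to 0.270, 0.169 and 0.232 CPM in Null controls, 0.211, 0.0652 and 0.1845 CPM in DKO controls, 5.089, 4.975 and 4.637 CPM in treated Null and 1.84, 1.52 and 1.46 CPM in treated DKO MEFs. Of the 5 tested, 5 rose in each genotype, and Vwf had the highest mean over all libraries, at 0.734 CPM. These 5 were at no more than 0.1235 CPM in any control library. They passed the filter on low counts only with the treated libraries, so that filter partly fixed the count of rises. Over all genes, 42.3% rose and 37.2% fell with etoposide in Null MEFs, and 43.7% rose and 31.5% fell in DKO MEFs. The part of these markers in the changes of the 8 genes was not tested.

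Of the 8 genes, 7 changed with etoposide in Null MEFs, 3 higher and 4 lower, where 79.4% of all genes were called, 42.3% higher and 37.2% lower. In DKO MEFs 6 changed, 3 higher and 3 lower, against 75.1% of all genes, 43.7% higher and 31.5% lower. Between DKO and Null controls 4 differed, 3 higher and 1 lower, against 66.7% of all genes, 33.3% higher and 33.4% lower. After etoposide 6 differed between the genotypes, 3 higher and 3 lower in DKO MEFs, against 74.0% of all genes, 37.5% higher and 36.6% lower. The interaction, which is the etoposide effect in DKO MEFs minus that in Null MEFs, was called for 4, with 1 above and 3 below 0, against 54.0% of all genes, 29.6% above and 24.4% below. Libraries of the 2 groups compared did not overlap for 7 of the 8 genes with etoposide in Null MEFs (80.2% of all genes), 6 in DKO MEFs (76.1%), 5 between the controls (70.5%) and 6 between the genotypes after etoposide (74.7%). These counts are near the shares among all genes and are no result about the 8 genes as a set. What sets them apart from each other is direction: with etoposide Top2a, Top2b and Top1 fell in both genotypes, and Top1mt, Top3b and Tdp2 rose in both. These 6 directions were the same under each scaling tried. The 2 etoposide comparisons have no libraries in common, but each shares its libraries with the comparisons of genotype. Both also come from 1 model with a shared scaling and a shared estimate of the spread, so they are not independent.

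**Figure D1:**
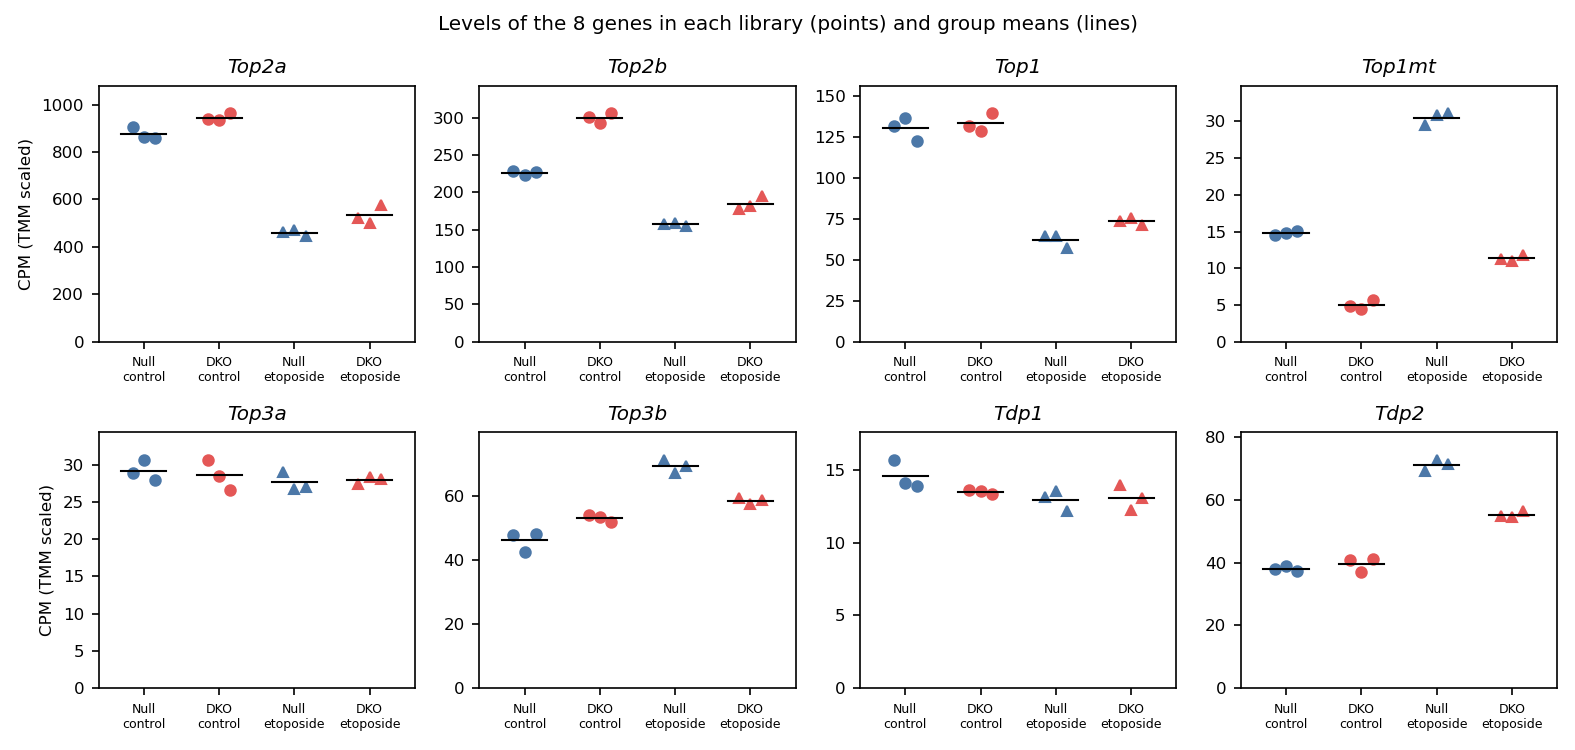
Level of each of the 8 genes in CPM (vertical axes, each from 0) in the 12 libraries, with points for single libraries, lines for the means of 3 libraries, circles for controls and triangles for etoposide. Top2a, Top2b and Top1 are lower and Top1mt and Tdp2 higher after etoposide in each genotype, and Top1mt is lower in DKO than in Null MEFs under both treatments.

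**Figure D2:**
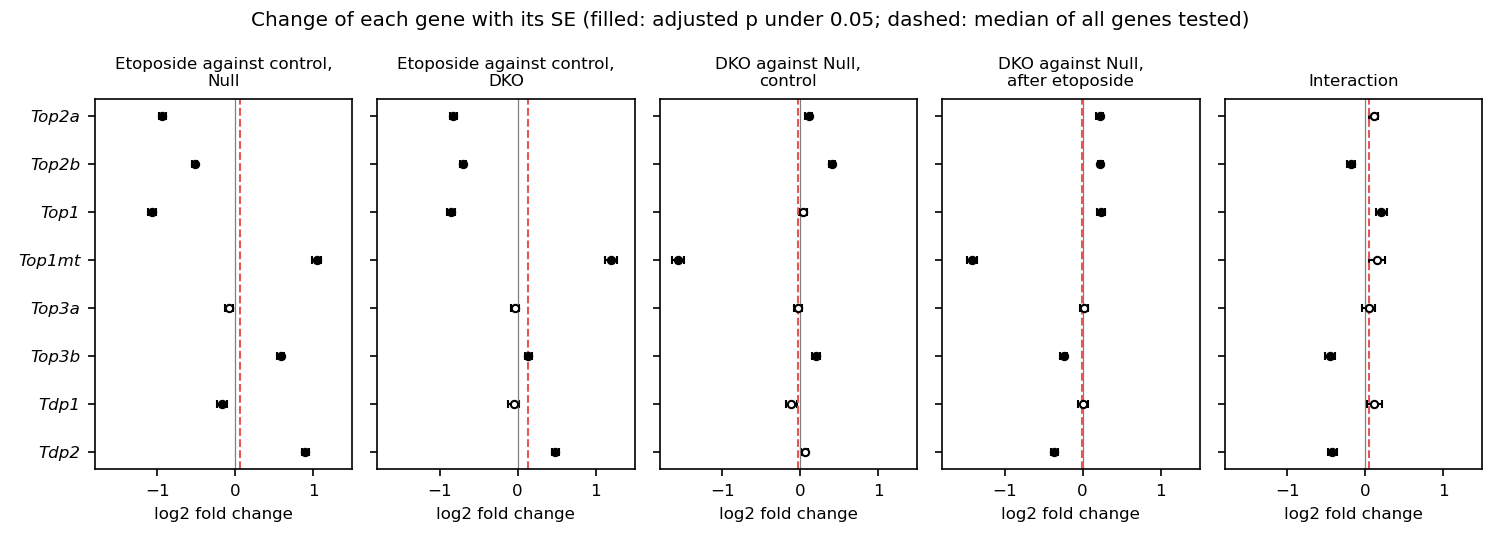
Log2 fold change of each gene (horizontal axes) in the 5 comparisons, with bars for 1 SE, often hidden by the point, filled points where the edgeR adjusted p is under 0.05 and a dashed line at the median of all genes tested. The etoposide changes run from −1.07 for Top1 to 1.05 for Top1mt in Null MEFs, while Top3a lies near 0 in all 5 panels.

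Promoter sequences were at hand in RefSeq for 5 of the 8 genes, on GRCm38.p6, and are shown for the 3 that fell in both genotypes. Each runs 5′ to 3′ over the 250 bases before the RefSeq start: chr11:99024190-99024439 on the minus strand for Top2a, chr14:16364956-16365205 on the plus strand for Top2b and chr2:160645647-160645896 on the plus strand for Top1. The last bases of the Top1 and Top2b windows lie inside the GENCODE genes, which start at 160645888 and 16365179. Capitals mark 3 motifs on either strand. CCAAT, the CCAAT box, appears as ATTGG where it lies on the other strand. The cell cycle homology region was searched as TTTGAA. The palindrome CACGTG is the core of the E-box.
Top2a: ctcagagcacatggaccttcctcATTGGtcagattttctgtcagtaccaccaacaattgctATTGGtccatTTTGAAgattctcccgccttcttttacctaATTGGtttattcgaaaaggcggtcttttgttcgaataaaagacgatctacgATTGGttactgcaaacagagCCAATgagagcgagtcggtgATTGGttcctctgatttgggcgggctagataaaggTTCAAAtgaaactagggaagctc
Top2b: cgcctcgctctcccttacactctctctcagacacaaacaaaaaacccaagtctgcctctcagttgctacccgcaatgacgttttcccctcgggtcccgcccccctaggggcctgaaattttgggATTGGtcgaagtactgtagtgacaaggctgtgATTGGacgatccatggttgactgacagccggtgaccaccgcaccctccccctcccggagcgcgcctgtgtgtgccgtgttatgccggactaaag
Top1: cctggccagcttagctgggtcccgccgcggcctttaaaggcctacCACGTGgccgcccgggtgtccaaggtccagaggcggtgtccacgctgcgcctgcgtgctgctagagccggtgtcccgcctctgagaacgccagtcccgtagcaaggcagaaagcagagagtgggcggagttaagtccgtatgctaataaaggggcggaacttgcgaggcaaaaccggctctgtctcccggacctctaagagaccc
Top2a held 6 CCAAT, starting at −227, −189, −149, −98, −78 and −58 from the start, and 2 TTTGAA at −179 and −23. Of 32851 promoters of the same length, 33.8% held CCAAT and 16% TTTGAA, and 19 promoters (0.0578%) held at least 6 CCAAT. Top2b held 2 CCAAT at −126 and −94. Top1 held 1 CACGTG at −205, as did 6.02% of promoters. In Tdp1 1 TTTGAA was found, and in Top3b 1 CCAAT. The CLEAR element, CACGTG with GT before and AC after it, is known to be bound by TFEB and TFE3. It was in 0.24% of promoters and in none of these 5 windows. A match describes letters in the window only.

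Top2a (chr11:98992943-99024189, minus strand; GRCm38, as for all genes; ENSMUSG00000020914.17) encodes the type II enzyme of proliferating cells, which untangles sister chromatids in mitosis and is the main target of etoposide in dividing cells. In Null MEFs it was at 907, 861 and 858 CPM without etoposide and at 461, 470 and 445 CPM after it. DKO MEFs had 937, 934 and 963 CPM without etoposide and 522, 501 and 577 CPM after it. Treated and control libraries did not overlap in either genotype. Mean levels were 875 ± 27.3 CPM (SD, n = 3) in Null controls and 459 ± 12.9 CPM after etoposide, a change of −47.6% (log2 fold change −0.93, SE 0.0443, edgeR BH-adjusted p = 1.83e-12). In DKO MEFs the mean went from 945 ± 15.5 to 533 ± 39.4 CPM (log2 fold change −0.82, SE 0.0442, edgeR BH-adjusted p = 1.63e-11). The difference between these effects was not called (interaction 0.11, SE 0.0622, edgeR BH-adjusted p = 0.157). With library size alone it was called at 0.21, and the alternatives, run with edgeR, DESeq2 or limma, gave the interaction an adjusted p between 0.00677 and 0.567. Leaving out single libraries gave interactions from 0.04 to 0.14.

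After etoposide Top2a was higher in DKO than in Null MEFs (log2 fold change 0.22, SE 0.0441, edgeR BH-adjusted p = 0.000251), and by 0.14, still called, without DKO etoposide replicate 3. In the controls the genotypes differed by 0.11 (SE 0.0439, edgeR BH-adjusted p = 0.0356), a call that was lost in 8 of 17 alternatives, over which the adjusted p of edgeR, DESeq2 or limma ranged from 0.00824 to 0.845. Library size alone turned this direction, to −0.01, and the call was lost at 0.10 with a stricter filter and at 0.09 with thinned libraries. It was also lost on leaving out a library, at 0.10 without Null control replicate 2, 0.10 without Null control replicate 3, 0.11 without DKO control replicate 1, 0.11 without DKO control replicate 2 and 0.10 without DKO control replicate 3. The etoposide changes of Top2a, in contrast, were called in all 17 alternatives in each genotype.

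Top2b (chr14:16365179-16435462, plus strand; ENSMUSG00000017485.11) encodes the other type II enzyme, which is also made in resting cells and acts in transcription. The Null libraries had 229, 223 and 227 CPM without etoposide and 158, 159.6 and 155 CPM after it. The DKO libraries had 301, 293 and 306 CPM without etoposide and 178, 181 and 195 CPM after it. No libraries of any compared groups overlapped. The fall was −0.52 in Null MEFs (SE 0.0353, edgeR BH-adjusted p = 2.78e-10) and −0.70 in DKO MEFs (SE 0.0352, edgeR BH-adjusted p = 6.68e-12). The interaction was −0.18 (SE 0.0497, edgeR BH-adjusted p = 0.00557), so the fall was larger in DKO MEFs. With library size alone the fall in DKO MEFs was −0.43 and still called, while the interaction was −0.07 and not called, and the alternatives, run with edgeR, DESeq2 or limma, gave it an adjusted p between 3.63e-06 and 0.217. Top2b was higher in DKO than in Null MEFs without etoposide by 0.41 (SE 0.0350, edgeR BH-adjusted p = 1.26e-08) and after it by 0.23 (SE 0.0353, edgeR BH-adjusted p = 1.59e-05). Exons of Top2b overlap those of Rarb on the opposite strand over 1793 bases, and the strand setting of the counting is not stated. Rarb was at 0.298 to 1.23 CPM. Whether reads of Top2b were lost in this overlap was not tested.

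Per kb of annotated exon, Top2a made up 86.5, 86.2 and 86.0% of the sum of Top2a and Top2b in Null controls and 83.5, 83.8 and 83.6% in DKO controls. After etoposide the share was 82.5, 82.7 and 82.3% in Null MEFs and 82.6, 81.8 and 82.8% in DKO MEFs. The Null controls thus had the highest share, apart from every other library. The share differed by −3.75 percentage points with etoposide in Null MEFs, by −1.23 points in DKO MEFs and by −2.62 points between DKO and Null controls, each with p = 0.1 in a two-sided exact permutation test, the smallest p that 3 against 3 libraries allow, and 0.133 after BH adjustment over 4 comparisons. No such test can pass 0.05 here. After etoposide the genotypes overlapped (difference −0.104 points, exact permutation p = 0.9), and without DKO etoposide replicate 2 the sign of that difference turned, to 0.21 points.

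**Figure D3:**
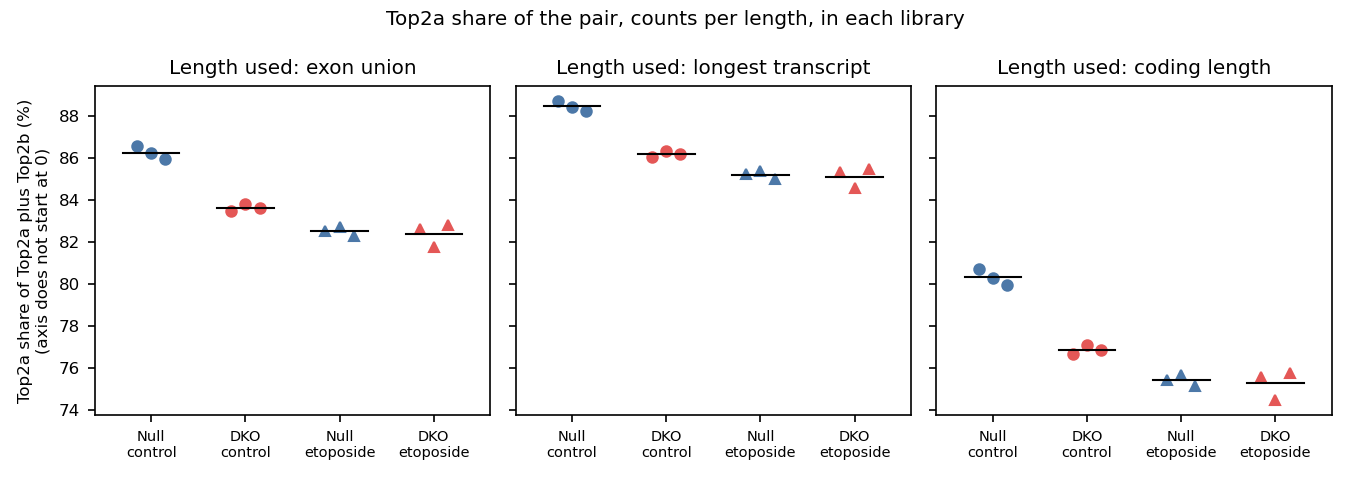
Top2a share of Top2a plus Top2b in percent (vertical axis, not from 0), counts per length, in each of the 12 libraries with group means as lines, for 3 definitions of length. Null controls lie above all other libraries with each length, at 86.0 to 86.5% with the union of exons, and the etoposide-treated genotypes overlap.

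Top2a is known to be highest in G2 and mitosis, and a list of 16 genes of these phases was examined beside it. The part of these phases in the fall of Top2a was not tested. In Null MEFs 14 of 16 fell, 0 rose and 2 were not called, with a median of −0.69 against 0.07 over all genes, of which 42.3% rose and 37.2% fell. In DKO MEFs 13 fell, 0 rose and 3 were not called, with a median of −0.53 against 0.14 over all genes, of which 43.7% rose and 31.5% fell. In Null MEFs the largest falls were those of the kinetochore gene Cenpf (−1.16, SE 0.0450), the mitotic motor Kif11 (−1.14, SE 0.0352) and Ube2c, an E2 enzyme of the anaphase-promoting complex (−1.09, SE 0.0386). In DKO MEFs they were those of Ube2c (−1.58, SE 0.0401), Ccnb2 (−1.14, SE 0.0501) and Plk1 (−1.11, SE 0.0557). The summed level of the list was 3377, 3370 and 3248 CPM in Null controls against 2426, 2519 and 2462 CPM after etoposide. In DKO MEFs it was 3381, 3367 and 3413 CPM against 2569, 2540 and 2674 CPM. In bulk RNA, fewer cells in a phase and less RNA per cell cannot be told apart.

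Of 16 genes of the G1/S transition and replication, 11 rose and 3 fell in Null MEFs, with 2 not called and a median of 0.31 against 0.07 over all genes, of which 42.3% rose and 37.2% fell. In DKO MEFs 13 rose and 1 fell, with 2 not called and a median of 0.38 against 0.14 over all genes, of which 43.7% rose and 31.5% fell. Largest in both genotypes was the rise of Ccne2, which encodes cyclin E2, by 1.79 (SE 0.0535) in Null and 1.39 (SE 0.0533) in DKO MEFs. Pola1, the catalytic subunit of DNA polymerase alpha, fell by 1.07 in Null MEFs (SE 0.0468) and by 0.64 in DKO MEFs (SE 0.0457) on the log2 scale. The summed level of the list was 3891, 3802 and 3794 CPM in Null controls and 4862, 4834 and 4890 CPM after etoposide. In DKO MEFs it was 4146, 4090 and 4126 CPM without and 5055, 5070 and 5295 CPM after etoposide. Between the genotypes, the G2 and mitosis list had 3 genes higher and 6 lower in DKO controls and 6 higher and 9 lower after etoposide. The replication list had 8 higher and 3 lower in controls and 10 higher and 5 lower after etoposide. Of all genes, 33.3% were higher and 33.4% lower in DKO controls, and 37.5% higher and 36.6% lower after etoposide.

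Top1 (chr2:160645888-160722764, plus strand; ENSMUSG00000070544.6) encodes nuclear topoisomerase I, which nicks DNA ahead of and behind transcribing polymerases. Null libraries gave 132, 137 and 123 CPM without etoposide and 64.8, 64.6 and 57.6 CPM after it. DKO libraries gave 132, 129 and 139.6 CPM without etoposide and 74.1, 76.0 and 71.3 CPM after it. Treated libraries were lower than every control library in both genotypes, and treated DKO libraries were above treated Null libraries. The change was −1.07 in Null MEFs (SE 0.0505, edgeR BH-adjusted p = 1.75e-12) and −0.86 in DKO MEFs (SE 0.0502, edgeR BH-adjusted p = 5.66e-11). The genotypes overlapped in the controls (0.03, SE 0.0492, edgeR BH-adjusted p = 0.575) and differed after etoposide (0.24, SE 0.0508, edgeR BH-adjusted p = 0.000363).

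The Top1 interaction was 0.21 (SE 0.0708, edgeR BH-adjusted p = 0.0192), a smaller fall in DKO MEFs. It was lost in 9 of 22 alternatives, over which the adjusted p of edgeR, DESeq2 or limma ranged from 0.00121 to 0.0980. The interaction was 0.15 with DESeq2, 0.15 in edgeR with the size factors of DESeq2 and 0.16 with a stricter filter on low levels. It was 0.18 without Null control replicate 2, 0.19 without DKO control replicate 1, 0.17 without DKO control replicate 2, 0.16 without Null etoposide replicate 3, 0.19 without DKO etoposide replicate 1 and 0.17 without DKO etoposide replicate 2. In each of these 9 the sign was kept and the call was not. It was 0.31 and called with library size alone.

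Top1mt (chr15:75657035-75678800, minus strand; ENSMUSG00000000934.9) encodes the type IB enzyme of mitochondrial DNA and had the largest difference between genotypes of the 8 genes. In Null MEFs it was at 14.54, 14.75 and 15.04 CPM without etoposide and at 29.5, 30.9 and 31.1 CPM after it. Levels in DKO MEFs were 4.90, 4.48 and 5.70 CPM without etoposide and 11.31, 11.01 and 11.77 CPM after it. Treated DKO libraries were thus below the untreated Null libraries. DKO controls were at 0.337 times the Null controls (log2 fold change −1.57, SE 0.0761, edgeR BH-adjusted p = 4.86e-12), and treated DKO MEFs at 0.373 times treated Null MEFs (−1.42, SE 0.0635, edgeR BH-adjusted p = 1.31e-12). Etoposide raised Top1mt by 1.05 in Null MEFs (SE 0.0617, edgeR BH-adjusted p = 3.86e-11) and by 1.20 in DKO MEFs (SE 0.0782, edgeR BH-adjusted p = 2.61e-10). The interaction of 0.15 (SE 0.1004, edgeR BH-adjusted p = 0.229) was not called. It was called at 0.25 with library size alone and at 0.24 without DKO control replicate 3, and the alternatives, run with edgeR, DESeq2 or limma, gave it an adjusted p between 0.0404 and 0.781. Leaving out single libraries gave interactions from 0.04 to 0.24.

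The type IA enzymes pass a strand through a nick in another and act with partner proteins in recombination and on RNA. Top3a (chr11:60740058-60777365, minus strand; ENSMUSG00000002814.15), which works with the helicase Blm to dissolve recombination intermediates, lay between 26.6 and 30.6 CPM in all 12 libraries. Every pair of groups overlapped, and none of the 5 comparisons was called with TMM, the log2 fold changes lying between −0.08 for etoposide in Null MEFs and 0.04 for the interaction. With library size alone Top3a was called higher after etoposide in DKO MEFs at 0.24, where the value with TMM was −0.03, and lower in DKO than in Null controls at −0.15. Relative to the median of all genes, which that scaling moves by 0.27 and −0.12, these are shifts of the same order. Top3a was the gene of the 8 with the least variation over the libraries, with a root mean square of 0.0646 around its mean on the log2 scale.

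Top3b (chr16:16870736-16892990, plus strand; ENSMUSG00000022779.16) encodes the enzyme that acts on RNA as well as DNA with Tdrd3 and Fmr1. In Null MEFs it was at 47.7, 42.5 and 48.1 CPM without etoposide and at 71.2, 67.3 and 69.2 CPM after it. Levels in the DKO MEFs were 54.1, 53.3 and 52.0 CPM without etoposide and 59.3, 57.4 and 58.7 CPM after it. DKO libraries were above Null libraries without etoposide and below them after it, with no overlap. The genotypes differed by 0.20 in controls (SE 0.0457, edgeR BH-adjusted p = 0.000738) and by −0.24 after etoposide (SE 0.0447, edgeR BH-adjusted p = 9.31e-05). With library size alone the control difference was 0.08 and not called, and the alternatives, run with edgeR, DESeq2 or limma, gave it an adjusted p between 5.07e-05 and 0.128.

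Etoposide raised Top3b by 0.59 in Null MEFs (SE 0.0452, edgeR BH-adjusted p = 1.72e-09) and by 0.14 in DKO MEFs (SE 0.0452, edgeR BH-adjusted p = 0.0115). The interaction was −0.45 (SE 0.0639, edgeR BH-adjusted p = 1.23e-05), the largest of the 8 genes in size. In DKO MEFs the rise equalled the median of all genes, 0.14, with 50% of genes lower. It was 0.41 with library size alone, which moved that median by 0.27. The call in DKO MEFs was lost at 0.10 with no filter on low counts, 0.11 without DKO control replicate 2 and 0.11 without DKO etoposide replicate 1, with an adjusted p from 3.42e-07 to 0.0850 over the alternatives run with edgeR, DESeq2 or limma.

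Of the 5 partner genes of Top3a and Top3b, 2 rose, 2 fell and 1 was not called with etoposide in Null MEFs, with a median of −0.10 against 0.07 over all genes, of which 42.3% rose and 37.2% fell. In DKO MEFs 1 rose, 2 fell and 2 were not called, with a median of 0.03 against 0.14 over all genes, of which 43.7% rose and 31.5% fell. Rmi2, a subunit of the complex of Blm and Top3a, rose by 0.34 in Null MEFs (SE 0.0684) and by 0.89 in DKO MEFs (SE 0.0699). Tdrd3, the partner of Top3b, fell by 0.63 in Null MEFs (SE 0.0545) and by 0.69 in DKO MEFs (SE 0.0543) on the log2 scale, opposite to Top3b. Between the controls 3 were higher in DKO MEFs, 1 lower and 1 not called, with a median of 0.13 against −0.02 over all genes, of which 33.3% were higher and 33.4% lower. Fmr1, an RNA-binding protein gene, was at 142, 145.5 and 132 CPM in Null and at 329, 328 and 338 CPM in DKO controls. That is a log2 fold change of 1.24 (SE 0.0393), and after etoposide the genotypes differed by 0.99 (SE 0.0393).

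Tdp2 (chr13:24831679-24842153, plus strand; ENSMUSG00000035958.3) encodes the phosphodiesterase that frees DNA ends from type II enzymes. Null MEFs gave 37.9, 38.8 and 37.4 CPM without etoposide and 69.2, 72.7 and 71.3 CPM after it. DKO MEFs gave 40.9, 36.9 and 41.3 CPM without etoposide and 54.7, 54.7 and 56.4 CPM after it. The genotypes overlapped without etoposide and were apart after it, with Null MEFs higher. Means rose from 38.1 ± 0.717 to 71.0 ± 1.79 CPM (SD, n = 3) in Null MEFs, 1.87-fold (log2 fold change 0.90, SE 0.0441, edgeR BH-adjusted p = 2.78e-12). In DKO MEFs they rose from 39.7 ± 2.40 to 55.3 ± 1.02 CPM, 1.40-fold (0.48, SE 0.0444, edgeR BH-adjusted p = 2.83e-08), and with library size alone this rise was 0.75. The interaction was −0.42 (SE 0.0625, edgeR BH-adjusted p = 2.02e-05), a smaller rise in DKO MEFs. After etoposide DKO MEFs were lower by −0.36 (SE 0.0432, edgeR BH-adjusted p = 7.03e-07). In controls the difference of 0.06 was not called (SE 0.0452, edgeR BH-adjusted p = 0.275). Without DKO control replicate 2 it was called at 0.11, and the alternatives, run with edgeR, DESeq2 or limma, gave it an adjusted p between 0.0446 and 0.658.

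Tdp1 (chr12:99884517-99955219, plus strand; ENSMUSG00000021177.16) encodes the phosphodiesterase that frees DNA ends from Top1, and it moved little. The Null MEFs were at 15.7, 14.1 and 13.9 CPM without etoposide and at 13.2, 13.6 and 12.2 CPM after it. The DKO MEFs were at 13.6, 13.5 and 13.4 CPM without etoposide and at 14.0, 12.2 and 13.1 CPM after it. Treated Null libraries were below the Null controls, by −0.17 (SE 0.0676, edgeR BH-adjusted p = 0.0284), and treated DKO libraries overlapped the DKO controls (−0.05, SE 0.0687, edgeR BH-adjusted p = 0.509). The interaction of 0.12 was not called (SE 0.0964, edgeR BH-adjusted p = 0.318), so the effects were not shown to differ.

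The fall of Tdp1 in Null MEFs was lost in 8 of 17 alternatives, over which the adjusted p of edgeR, DESeq2 or limma ranged from 0.0138 to 0.964. It was −0.13 with DESeq2, −0.13 in edgeR with the size factors of DESeq2, −0.00374 when scaled by library size alone, −0.08 with a stricter filter, −0.14 with libraries thinned to the smallest total and −0.16 with only the 6 libraries compared. It was −0.12 without Null control replicate 1 and −0.14 without Null etoposide replicate 3. With library size alone Tdp1 was called higher after etoposide in DKO MEFs at 0.22, where the value with TMM was −0.05. DKO controls lay below Null controls without overlap, yet the difference of −0.11 (SE 0.0679, edgeR BH-adjusted p = 0.154) was called only with library size alone, at −0.23. No call of Tdp1 held over all alternatives.

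Of 9 end joining genes tested, which join the ends that Tdp2 leaves, 3 rose, 4 fell and 2 were not called in Null MEFs, with a median of 0.04 against 0.07 over all genes, of which 42.3% rose and 37.2% fell. In DKO MEFs 3 rose, 1 fell and 5 were not called, with a median of 0.06 against 0.14 over all genes, of which 43.7% rose and 31.5% fell. Poll, which encodes DNA polymerase lambda, rose in both genotypes, by 1.10 in Null MEFs (SE 0.0624) and by 0.99 in DKO MEFs (SE 0.0690). It was at 24.6 to 27.5 CPM in Null and 11.8 to 14.3 CPM in DKO controls, a difference of −0.98 (SE 0.0691). Xrcc5 and Xrcc6 encode the subunits of the end-binding protein Ku and differed between genotypes in opposite directions. After etoposide Xrcc5 was higher in DKO MEFs by 0.88 (SE 0.0439), and Xrcc6 was lower, at −0.33 (SE 0.0384).

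Of 7 single-strand break repair genes that act with Tdp1, 2 rose, 1 fell and 4 were not called in Null MEFs, with a median of 0.04 against 0.07 over all genes, of which 42.3% rose and 37.2% fell. In DKO MEFs 3 rose, 1 fell and 3 were not called, with a median of 0.07 against 0.14 over all genes, of which 43.7% rose and 31.5% fell. The scaffold gene Xrcc1 rose by 0.41 in Null MEFs (SE 0.0423) and by 0.20 in DKO MEFs (SE 0.0430). Lig3, the ligase that Xrcc1 binds, fell by 0.34 on the log2 scale in Null MEFs (SE 0.0335) and was not called in DKO MEFs (0.04, SE 0.0328). It was higher in DKO than in Null MEFs already without etoposide, by 0.50 (SE 0.0331), and after it by 0.88 (SE 0.0333).

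Trapped topoisomerases are also cleared by proteolysis with ubiquitin and SUMO, and by nucleases. Of 11 proteolysis, ubiquitin and SUMO genes tested, 2 rose, 4 fell and 5 were not called in Null MEFs (median −0.06), and the same numbers were found in DKO MEFs (median −0.03). Over all genes the medians were 0.07 and 0.14, with 42.3% higher and 37.2% lower in Null and 43.7% and 31.5% in DKO MEFs. Fam111a, a protease gene, was at 264 to 281 CPM in Null controls and 534 to 564 CPM after etoposide, and at 222 to 241 CPM in DKO controls and 296.5 to 320.4 CPM after it. It rose by 1.01 in Null MEFs (SE 0.0399) and by 0.39 in DKO MEFs (SE 0.0398), with an interaction of −0.62 (SE 0.0561). Like Tdp2 it rose less in DKO MEFs by that test. Tex264, which recruits the ATPase encoded by Vcp to trapped Top1, was higher in DKO than in Null MEFs by 0.43 in controls (SE 0.0473) and by 0.73 after etoposide (SE 0.0478).

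Of 13 nuclease genes and their helpers, 7 rose, 4 fell and 2 were not called in Null MEFs, with a median of 0.27, and 6 rose, 5 fell and 2 were not called in DKO MEFs, with a median of 0.11. The medians of all genes were 0.07 and 0.14, and 42.3% of all genes rose and 37.2% fell in Null MEFs, against 43.7% and 31.5% in DKO MEFs. Eme1, a partner of the endonuclease Mus81, rose by 0.68 in Null MEFs (SE 0.0581) and by 0.90 in DKO MEFs (SE 0.0597). Mus81 itself was at 23.0 to 25.2 CPM in Null controls and 37.7 to 38.8 CPM after etoposide. In DKO MEFs it was at 19.31 to 21 CPM in controls and 17.2 to 17.5 CPM after etoposide. It thus rose in Null MEFs by 0.67 (SE 0.0482) and fell by 0.20 on the log2 scale in DKO MEFs (SE 0.0519), with an interaction of −0.88 (SE 0.0708). Nbn, a subunit of the complex with Mre11a and Rad50, fell by 0.61 in Null MEFs (SE 0.0456) and by 0.47 in DKO MEFs (SE 0.0455) on the log2 scale, while Rad50 rose by 0.62 in Null MEFs (SE 0.0461) and by 0.28 in DKO MEFs (SE 0.0458).

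**Figure D4:**
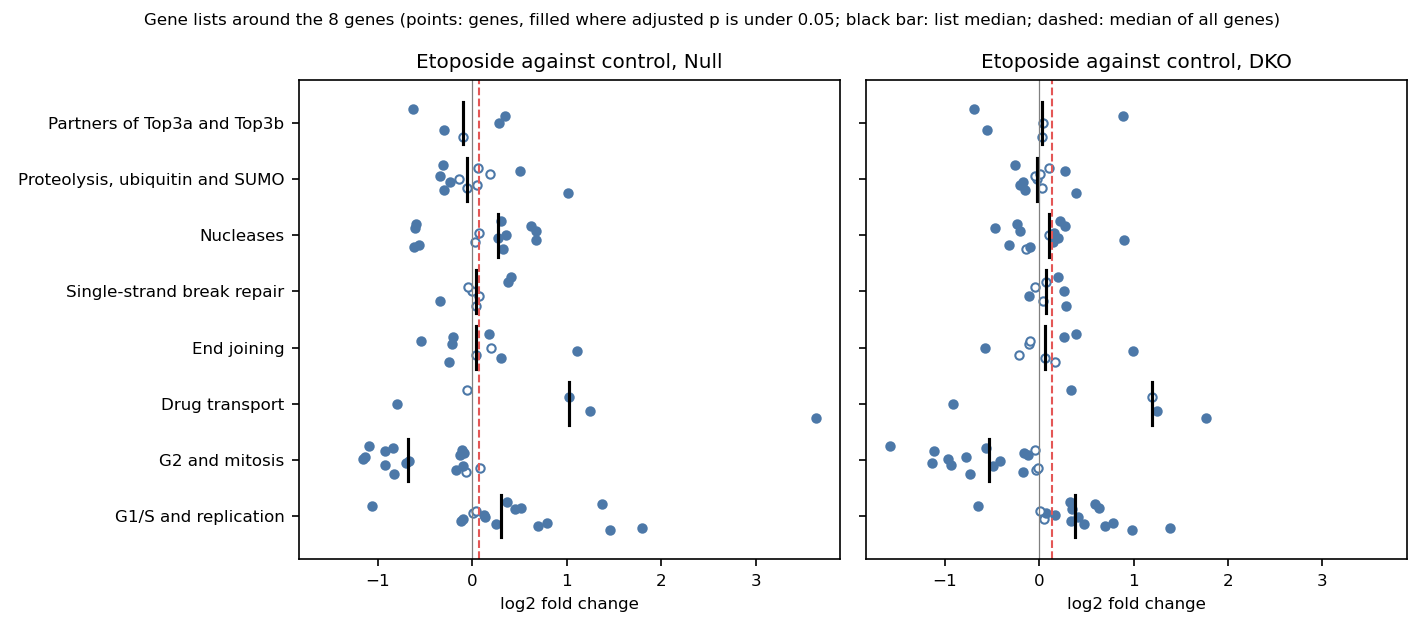
Log2 fold change with etoposide (horizontal axes) of single genes in 8 lists, in Null and in DKO MEFs, with filled points where the edgeR adjusted p is under 0.05, a black bar at the list median and a dashed line at the median of all genes tested. The G2 and mitosis list has medians of −0.69 and −0.53, the replication list of 0.31 and 0.38.

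Of 8 genes of etoposide transport and metabolism, 5 were tested, of which 3 rose, 1 fell and 1 was not called in each genotype, with medians of 1.02 in Null and 1.20 in DKO MEFs against 0.07 and 0.14 over all genes, of which 42.3% and 43.7% rose and 37.2% and 31.5% fell. Both medians are the values of Abcc3, which averaged only 0.366 CPM and was not called in DKO MEFs (edgeR BH-adjusted p = 0.0580). Cyp3a11, Cyp3a13 and Ugt1a1 did not pass the filter and were at no more than 0.206 CPM in any library. Abcb1a, an efflux pump of the P-glycoprotein type for which etoposide is a substrate, was at 2.10 to 2.49 CPM in Null controls and 28.1 to 30.9 CPM after etoposide. In DKO MEFs it was at 1.87 to 2.33 CPM in controls and 6.99 to 7.81 CPM after etoposide. Its rise was 3.64 in Null MEFs (SE 0.0904) and 1.77 in DKO MEFs (SE 0.107), with an interaction of −1.87 (SE 0.155). Abcb1b, of the same list, averaged 98.3 CPM against 10.2 CPM for Abcb1a. It rose by 1.24 in Null MEFs (SE 0.0517) and by 1.25 in DKO MEFs (SE 0.0526). The Abcb1b interaction of 0.0081 (SE 0.0730) was not called (edgeR BH-adjusted p = 0.950). Abcc1, another efflux pump, fell by 0.80 in Null MEFs (SE 0.0362) and by 0.91 in DKO MEFs (SE 0.0363) on the log2 scale. Abcg2 was at 43.8 to 47.2 CPM in Null and 11.5 to 13.0 CPM in DKO controls, a difference of −1.89 (SE 0.0644). With etoposide Abcg2 rose by 0.34 in DKO MEFs (SE 0.0691) and was not called in Null MEFs (−0.06, SE 0.0575), with an interaction of 0.40 (SE 0.0899) that was called.

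Of the meiotic relatives of type II enzymes, Spo11 had a mean of 0.0392 CPM and did not pass the filter, and Gm960 had a mean of 0.153 CPM and was called in none of the 5 comparisons by edgeR. Levels of the 8 genes were compared with each other only per kb of annotated exon. On this scale Top2a was highest in every group, at 97.1 ± 3.03 CPM per kb in Null controls, 105 ± 1.72 in DKO controls, 50.9 ± 1.43 in treated Null and 59.2 ± 4.37 in treated DKO MEFs (SD, n = 3 each). Tdp1 was lowest in every group, at 1.82 ± 0.120 CPM per kb in Null controls and 1.62 ± 0.0903 in treated Null MEFs. In Null controls the order between them was Top2b, Top1, Tdp2, Top1mt, Top3a and Top3b, in which only Top1 and Tdp2 overlapped as neighbours. In treated Null MEFs it was Tdp2, Top1mt, Top2b, Top3b, Top3a and Top1, in which only Top3a and Top1 overlapped. Tdp2 thus moved from 11.6 ± 0.218 to 21.6 ± 0.545 CPM per kb, directly after Top2a. In DKO controls the order was Top2b, Top1, Tdp2, Top3b, Top3a and Top1mt, with overlaps of Top1 with Tdp2 and of Top3b with Top3a. In treated DKO MEFs it was Tdp2, Top2b, Top1, Top3b, Top3a and Top1mt, with an overlap of Top1 and Top3b.

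The order depends on the length used. By coding length Top2a was still highest in all 4 groups, but Top1 stood above Top2b in Null controls at 56.7 against 46.8 CPM per kb. Top1mt was then lowest in both DKO groups. By the longest transcript Top2a was again highest, and the mean of Top1 stood above that of Top2b in all 4 groups, at 33.8 against 21.9 CPM per kb in Null controls. In treated MEFs the means were closer and libraries of the 2 genes overlapped, at 16.2 ± 1.06 against 15.3 ± 0.206 CPM per kb in Null MEFs. Treated DKO MEFs had 19.1 ± 0.607 against 17.9 ± 0.858 CPM per kb by this length. Top3b then came directly after Tdp2 in treated Null MEFs. For Top2b the union of exons is 14613 bases and the coding length 4836 bases.

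Genes with the most similar pattern were sought among the 9353 genes averaging 10 CPM or more, by the root mean square (RMS) difference of log2 CPM, centred on each gene's mean, over the 12 libraries. For Top2a they were Smchd1 (0.0492), Pbrm1 (0.0573) and Rabep1 (0.0620), where the RMS of Top2a around its own mean was 0.451. None of these is in the G2 and mitosis list. That list holds only 16 genes against 9353 searched, so its absence among so few neighbours carries no information. Whether Top2a follows the list was not tested by this search. For Top2b the closest were Anxa3 (0.0387), Tacc1 (0.0588) and Ccser2 (0.0609), and for Top1 they were Ankrd17 (0.0516), Kif1b (0.0580) and Jak1 (0.0593). Top1mt had less close neighbours, with Ddit4 at 0.135, Bloc1s2 at 0.168 and Pla2g6 at 0.170 against its own RMS of 0.933. Ddit4, a stress-induced inhibitor of mTORC1 signalling, had group means of 178 CPM in Null and 66.2 CPM in DKO controls, and of 396 and 122 CPM after etoposide. For Tdp2 the closest were Taf6 (0.0673), Zfp958 (0.0689) and Pttg1 (0.0757), and for Top3b Clk3 (0.05), Ifngr2 (0.0536) and Nsmaf (0.0593). For Top3a they were Arl6ip1 (0.0578), Vdac1 (0.0596) and Jmy (0.0609), and for Tdp1 Meaf6 (0.0543), Exosc8 (0.0561) and Taf2 (0.0564). Top3a varied by only 0.0646 and Tdp1 by 0.0920 themselves, so likeness says little for these.

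The effect of other overlaps of annotated exons on the counts was not tested. Top3b shares 108 bases with Vpreb1 on the opposite strand, which was at 0.0109 to 0.292 CPM. Top1mt shares 95 bases with an antisense gene and Top2a 122 bases with a small nucleolar RNA gene on its own strand, neither of which was matched in the count table.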

How the data were processed

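RNA-Seq of total RNA, from stranded libraries depleted of rRNA, was analysed from a table of counts. The authors deposited whole counts per gene without normalization. Per the paper, reads were checked with FastQC, trimmed with Cutadapt and aligned with HISAT2, and unique pairs were counted with HTSeq on GENCODE. The submitters' processing notes name HISAT2, featureCounts and mm10. The 5 summary lines have the form that HTSeq writes, and the strand setting is not stated. They entered neither library sizes nor tests. Genes took 53.4 to 63.1% of the sum of all lines in a library. Reads outside features took 20.2 to 27.3%, reads that were not unique 15.9 to 20.5% and ambiguous reads 0.428 to 0.513%. Whether reads in introns were among those outside features was not tested. Floors and counting errors cover counting error only. A floor of 3 counts corresponds to 0.0298 to 0.0607 CPM.

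Counts were fitted in R 4.3.3 with edgeR 4.0.16 (filterByExpr with 4 groups, TMM, glmQLFit and glmQLFTest, 12 libraries in 1 model with a group factor), with BH adjustment over 15220 genes in each of 5 comparisons. Each SE is the size of a log2 fold change divided by the root of its F statistic. Libraries of 1 group differed from each other beyond sampling noise. Coordinates and lengths are from GENCODE M21 on GRCm38, promoters from RefSeq. The Top2a share was tested by an exact permutation test.

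Alternatives were DESeq2 1.42.0, limma-trend (limma 3.58.1) with robust estimates as in the study, DESeq2's size factors, library size alone, no filter, a stricter filter, thinned libraries, leaving out Rn45s, Rmrp and Rpph1, which took many reads, the replicate number as a block, only the 6 libraries compared, each library left out in turn and, for the share, longest transcript. A legacy quasi-likelihood fit and coding length were chosen after seeing the data.

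Genes to name were the 8 genes, Tfeb, Tfe3 and 6 p53 targets, from each list the up to 3 largest called rises and falls per comparison among genes averaging 1 CPM or more whose libraries did not overlap, and the 3 genes most like each of the 8. From the lists, examples among the genes so chosen are named, picked after their values were seen, and the others enter the counts and medians. Of the genes so chosen, 1 is not reported here. Marker genes, Spo11, Gm960, Abcc3 and the untested drug metabolism genes, and the genes in overlaps, are named as checks. The 8 genes and the lists were chosen with earlier results of these data known.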

Additional observations from a re-analysis of the deposited data

Results flagged for a closer look

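For 4 of the 8 genes the etoposide effect differed between DKO and Null MEFs by the interaction test of edgeR, at a BH-adjusted p under 0.05, where 54.0% of all genes tested did. The interaction, the log2 effect in DKO MEFs minus that in Null MEFs, was 0.21 for Top1, which fell less in DKO MEFs, a call that was lost in 9 of 22 alternatives. It was −0.18 for Top2b, which fell more in DKO MEFs, and −0.07 and not called with library size alone. For Top3b it was −0.45 and for Tdp2 −0.42, both of which rose less in DKO MEFs.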

How the results depend on the processing

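Over the alternatives, no call was gained, lost or turned in 682 of 720 log2 fold changes of the 8 genes. Among these, values near 0 that were not called could change sign, for Top1 and Tdp2 between the controls, Top3a in the 5 comparisons and Tdp1 after etoposide between the genotypes, in part on leaving out single libraries. A further 29 kept the direction and lost the call, 6 gained a call, and 3 changed direction where the value was called with TMM or with the alternative. These 3 did so with library size alone: Top3a after etoposide in DKO MEFs at 0.24, Tdp1 after etoposide in DKO MEFs at 0.22 and Top2a between the control genotypes at −0.0111. Of the calls lost, 15 were lost on leaving out 1 library. The numbers of the 8 genes called, of 7, 6, 4, 6 and 4 in the 5 comparisons, stayed within 1.5 times those values in 90 of 90 alternatives.

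The difference in Top2a share was −3.75 points with etoposide in Null MEFs, and −3.25 with the longest transcript or −4.90 with coding length as the length. Between the controls it was −2.62 points, and −2.27 or −3.45 with these lengths. After etoposide the difference between genotypes ranged from −0.301 to 0.210 points on leaving out single libraries. The lengths themselves set the scale of these values.

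Replicate numbers did not pair the samples: deviations of same-numbered libraries correlated between −0.0320 and 0.0429. With the replicate number as a block, 7, 6, 4, 6 and 4 of the 8 genes were called in the 5 comparisons, with 12111, 11416, 10171, 11274 and 8208 of all genes.

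There was 1 line per genotype, 1 dose and 1 time. RNA levels say nothing of protein, of trapped complexes or of RNA made per cell, and a change in total RNA per cell would not show after scaling. Depth limits Top1mt in DKO controls most, with a counting error of up to 5.54%. The cause of the changes with scaling was not tested beyond the shift of the median.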
